A study of Homo sapiens with 6 samples.

Results

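Potassium channel genes were taken as the protein-coding genes whose symbol is KCN followed by letters and a number, which gave 95 of the 67060 genes in the count table and of 19920 protein-coding ones. The rule used only the symbol and no measured value. The 95 genes were followed in SH-SY5Y, a human neuroblastoma line that the labels call a neuronal progenitor, 24 h after infection with an adenovirus. Control cells received Ad CMV GFP (replicates 1, 3 and 4). The other cells received Ad CMV 3xFlag-Esrrg (replicates 2, 3 and 4), in which the CMV promoter drives a tagged mouse coding sequence of estrogen-related receptor gamma (ERRγ), a nuclear receptor. Each group had 3 libraries of total RNA after removal of ribosomal RNA, and each culture got 0.5 µl of virus. Both groups are 1 cell line that carries an adenovirus, with no uninfected cells among these libraries. Nothing in the labels says whether the 3 libraries of a group came from separate cultures, so p-values measure the spread between these libraries, which may be technical.

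Potassium channels let potassium cross the cell membrane, mostly outward, and so help set the resting potential and end the action potential. Voltage-gated (Kv, EAG and KCNQ) channels open on depolarization, inward rectifiers (Kir) and tandem-pore leak channels (K2P) hold the cell near its resting potential, and another class opens with intracellular calcium or sodium. Silent Kv subunits form no channel alone but join other Kv subunits, and auxiliary subunits change gating or trafficking of the pore. In neuroblasts and sympathetic neurons these channels shape excitability, and in dividing cells they also bear on volume and the cell cycle.

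The control libraries held 24969759 to 29700980 counts on genes, and those with Ad CMV 3xFlag-Esrrg 26513620 to 40859666. *ESRRG* had 87.0 ± 3.40 normalized counts per 1000000 (CPM) in the control and 706 ± 119 with Ad CMV 3xFlag-Esrrg (SD, n = 3 each). The share of reads that fell in no annotated gene moved with the groups. It was 51.3% to 52.2% in the control and 46.6%, 31.6% and 29.5% in Ad CMV 3xFlag-Esrrg replicates 2, 3 and 4, so that replicate 2 stood apart from the other two. Of 12 sympathetic neuroblast markers, 10 were tested, 1 was higher and 4 were lower after Ad CMV 3xFlag-Esrrg, and their summed level was 868 to 927 CPM against 617 to 817. Of these, *TH* and *CHGA* had 0 counts in all libraries, and 90.2% of the 31-base words of *CHGA* also lie in alternate contigs of the genome, against 0% for *TH*. Only 3 of 6 neuronal progenitor markers were tested, with *SOX1* and *HES5* at 0 counts in all libraries and a summed level of 335 to 396 CPM against 415 to 519. Most of that sum was *NES* (330 ± 29.8 CPM against 434 ± 48.5), which was not called. Markers of mesenchymal or substrate-adherent neuroblastoma cells (8 of 8 tested, 2 higher and 1 lower) summed to 3204 to 3227 CPM against 4035 to 4136. Most of this sum was *FN1* (1956 ± 27.4 CPM against 2691 ± 71.7), which was not called. The groups overlapped for *PRRX1* and *CD44*, and *COL1A1* and *SNAI2* were lower without a call, so the sum does not describe the whole set. Epithelial markers summed to at most 3.59 CPM, endothelial markers to at most 2.35 and blood markers to at most 0.748 in any library. The part of these shifts in the channel results was not tested, and in bulk RNA fewer cells of a type and less RNA per cell cannot be told apart.

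Of the 95 channel genes, 82 had a count above 0 in some library and 56 reached a mean of 10 counts over the 6 libraries. The filter on low counts kept 55 of these 56 for testing. The filter depends on the counts themselves, so counts over the 55 tested genes do not describe all 95. In all libraries 13 genes had 0 counts, namely *KCNA1*, *KCNA5*, *KCNA10*, *KCNB2*, *KCNC2*, *KCND2*, *KCNJ18*, *KCNK10*, *KCNK17*, *KCNK18*, *KCNN2*, *KCNU1* and *KCNV1*. A count of 0 allows up to 3 counts, or 0.0880 to 0.112 CPM depending on the library, counting error alone. A further 12 never exceeded 3 counts, and 15 untested genes had 4 or more in some library. *KCNJ18* shares 57.3% of its 31-base words with *KCNJ12* or *KCNJ4*, and *KCNJ12* 23.8% with other channel genes, so a low count of either is uncertain.

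Detection differed by class. The classical Kv genes (KCNA to KCND) were the sparsest, with 7 of 17 tested and 10 never above 3 counts. Among them, 7 of the 8 *KCNA* (Shaker-type) genes did not exceed 3 counts in any library. *KCNA7* was the exception, with 67, 60 and 96 counts against 64, 57 and 48. In the other classes 7 of 8 EAG, 4 of 5 KCNQ, 6 of 8 calcium- or sodium-activated, 9 of 16 Kir, 8 of 15 K2P, 5 of 10 silent Kv and 9 of 16 auxiliary genes were tested. *KCNS3*, a silent subunit that the study examines in mouse neurons, had 4, 9 and 4 counts in the control and 1, 4 and 2 with Ad CMV 3xFlag-Esrrg. It was too low for the filter and was not tested. In CPM the lowest control library (0.121) lay just above the highest Ad CMV 3xFlag-Esrrg library (0.119).

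A few genes held most of the channel RNA. *KCNMA1*, the pore subunit of the large-conductance calcium-activated (BK) channel, had 10370, 10207 and 12026 counts in the control and 11408, 13405 and 13426 with Ad CMV 3xFlag-Esrrg. That was 40.8% to 43.3% of all channel counts in the control libraries and 45.2% to 46.9% in the others. Its level was 354 ± 20.7 CPM against 406 ± 17.8 (SD, n = 3 each), and the log2 difference of 0.20 (SE 0.10) did not pass edgeR's quasi-likelihood test (adjusted p = 0.12) although the groups did not overlap. Summed over the 95 genes the level was 834 ± 22.8 CPM against 882 ± 24.1, and without *KCNMA1* 480 ± 5.57 against 476 ± 8.67. Thus the total apart from *KCNMA1* differed by less than the spread between libraries.

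Per kilobase of annotated exon, *KCNK2* (TREK-1, a mechanosensitive leak channel) had the highest level, 23.6 ± 0.284 CPM per kb in the control and 21.8 ± 0.964 with Ad CMV 3xFlag-Esrrg. *KCNMA1* came next in the control with 8.97 ± 0.524, but its many annotated exons weigh on that value, and by the length of its canonical transcript it stood first at 60.7 CPM per kb over both groups. After it came *KCNT2*, a sodium-activated channel, with 6.97 ± 0.461. The next 4 genes could not be ordered beyond their spread in the control. These were *KCNK1* (5.99 ± 0.772), the M-current gene *KCNQ5* (5.90 ± 0.146), *KCNJ8* (5.89 ± 0.179), which encodes the Kir6.1 pore, and *KCNH2* (5.68 ± 0.614), which encodes the hERG channel, all in CPM per kb. *KCNAB1*, eighth over both groups, had 2.33 ± 0.0802. After Ad CMV 3xFlag-Esrrg the order below *KCNK2* differed, with *KCNK1* at 12.9 ± 1.10, *KCNMA1* at 10.3 ± 0.451 and *KCNH2* at 7.43 ± 1.11 CPM per kb.

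**Figure D1:**
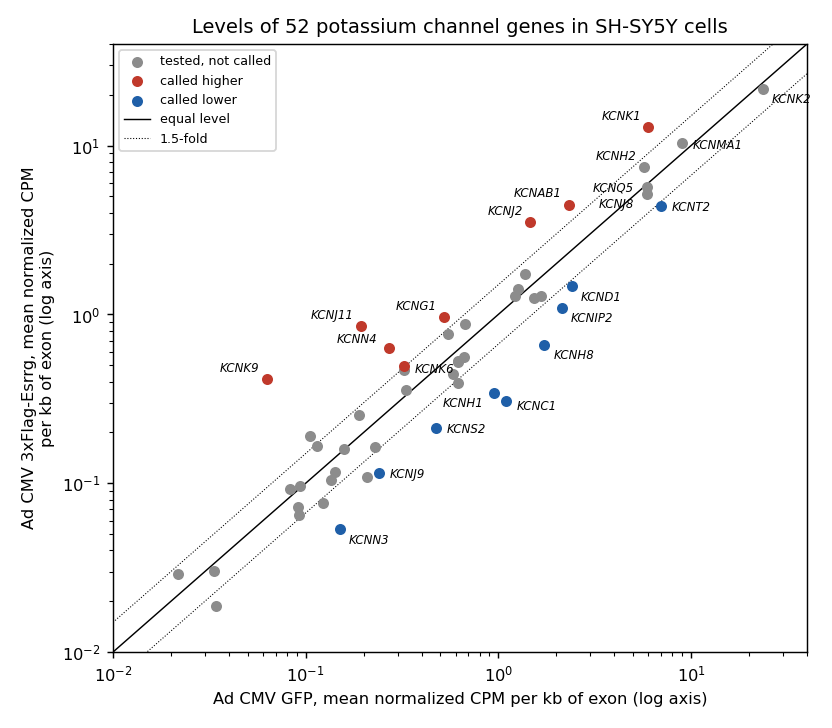
Mean normalized CPM per kb of exon with Ad CMV GFP (x axis, log) and with Ad CMV 3xFlag-Esrrg (y axis, log) for 52 tested potassium channel genes, 1 point a gene, coloured by call, with a solid line at equal level and dotted lines at 1.5-fold. *KCNK2* is at the top right at 23.6 and 21.8 CPM per kb, near the line of equal level, and *KCNK9* lies farthest above it.

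Of the 8 genes with the highest level, 3 were called changed, and these are described with their classes. *KCNK2* had 2839, 3120 and 3406 counts against 2409, 3304 and 3149, with a log2 difference of −0.12 (SE 0.09). *KCNQ5* had 1936, 2046 and 2170 counts against 1986, 2108 and 1879 (log2 difference −0.06, SE 0.11). *KCNJ8* had 404, 471 and 491 counts against 324, 435 and 475 (log2 difference −0.19, SE 0.11). None of these 3 passed the test, and the normalized levels of *KCNQ5* overlapped between groups. *KCNH2* had 1018, 1387 and 1382 counts against 1230, 1772 and 2111 (log2 difference 0.39, SE 0.13). Its groups did not overlap and edgeR's quasi-likelihood test gave an adjusted p of 0.027, but the difference was below 1.5-fold.

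The comparison between the viruses asked which channel genes differ when ERRγ is raised. Calls required a change of at least 1.5-fold and a p, adjusted by Benjamini-Hochberg over the 24500 genes tested, below 0.05. Of the 55 channel genes 8 were called higher and 11 lower after Ad CMV 3xFlag-Esrrg, which is 34.5% of them. Among all genes tested 34.1% were called, 17.3% higher and 16.8% lower, and among protein-coding genes 38.3%, 25.9% higher and 12.4% lower. The channel genes were thus called about as often as other genes, with 14.5% higher and 20% lower. Their median log2 difference was −0.17, against −0.10 over all genes tested and 0.12 over protein-coding ones. For 26 of the 55 (47.3%), among them all 19 called genes, the libraries of both groups were fully separated, against 58.1% of all genes tested and 70.3% of protein-coding ones. With 3 libraries a group, a permutation test of a single gene cannot go below p = 0.1. With library size as the only scaling 6 were called higher and 17 lower (8.98% and 30.9% of all genes), and with only protein-coding genes in the fit 7 and 15 (20.5% and 18% of those). With the share of reads in no gene as a covariate 7 were higher and 8 lower (7.24% and 5.40% of all genes), and with the correction for GC content and length 6 and 13 (13.4% and 15% of all genes). Library size alone lowered the median of all genes by 0.32 on the log2 scale and that of the channel genes by as much.

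**Figure D2:**
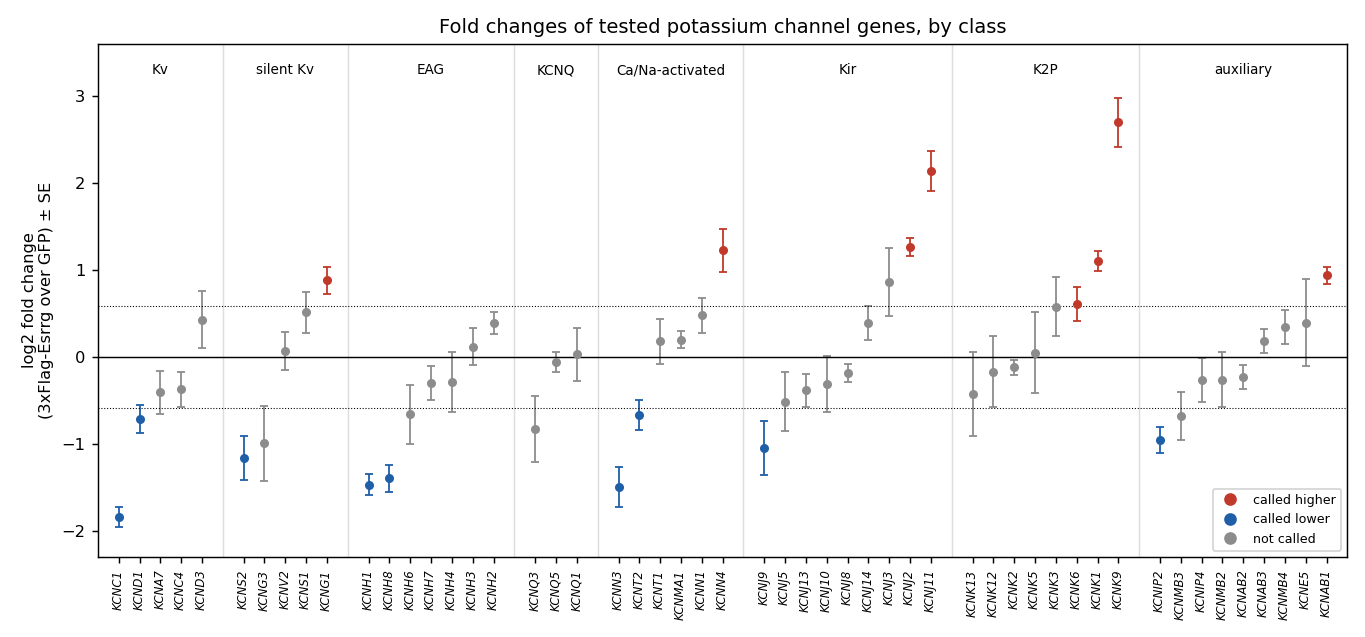
Log2 fold change (Ad CMV 3xFlag-Esrrg over Ad CMV GFP) with its standard error for 52 tested genes, by channel class, coloured by call, with dotted lines at 1.5-fold. K2P genes have 3 called higher and 0 lower, and the largest changes are *KCNK9* at 2.70 and *KCNC1* at −1.84.

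Among the K2P leak channels, 3 of 8 tested genes were higher, 0 were lower, and the class median was 0.31. *KCNK9* encodes TASK-3, an acid-sensitive leak channel, and lies at chr8:139600838-139704109 (minus strand, GRCh38). It had 7, 16 and 17 counts in the control and 63, 105 and 101 with Ad CMV 3xFlag-Esrrg, or 0.426 ± 0.154 CPM against 2.81 ± 0.403 (SD, n = 3 each). Every Ad CMV 3xFlag-Esrrg library lay above every control library, and the 6.49-fold difference was the largest of any tested channel gene (log2 2.70, SE 0.28, adjusted p = 6.9e-05, edgeR's quasi-likelihood test). *KCNK1* encodes TWIK-1, a weakly conducting leak channel. It had 674, 571 and 697 counts against 1097, 1588 and 1644, a rise from 21.1 ± 2.72 to 45.5 ± 3.89 CPM (log2 1.11, SE 0.12, adjusted p = 7.2e-05, edgeR). *KCNK6* (TWIK-2) had 48, 68 and 69 counts against 71, 99 and 121, a change of 1.53-fold (log2 0.61, SE 0.20, adjusted p = 0.026, edgeR). That call was lost under 11 of 17 alternative settings, and also in the test against a 1.5-fold threshold, which these 17 leave out. The acid-sensitive channel *KCNK3* (TASK-1), which can pair with TASK-3, had 28, 20 and 16 counts against 20, 33 and 47 and was not called (log2 0.58, SE 0.34). The other 4 tested K2P genes, *KCNK2* among them, had log2 differences from −0.43 to 0.05 and were not called.

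The inward rectifiers had 2 of 9 tested genes higher and 1 lower. *KCNJ11* encodes Kir6.2, the pore of the ATP-sensitive (KATP) channel that links metabolism to excitability, and lies at chr11:17365172-17389331 (minus strand, GRCh38). It had 24, 35 and 29 counts in the control and 88, 167 and 148 with Ad CMV 3xFlag-Esrrg, or 0.953 ± 0.155 CPM against 4.20 ± 0.844, with no overlap (log2 2.14, SE 0.23, adjusted p = 7.6e-05, edgeR). The other KATP pore, *KCNJ8*, was not called, as given above. *KCNJ2* encodes Kir2.1, a strong rectifier that stabilizes the resting potential. Its counts were 241, 247 and 263 against 523, 646 and 683, a rise from 8.16 ± 0.337 to 19.6 ± 0.428 CPM (log2 1.26, SE 0.10, adjusted p = 1.7e-05, edgeR). The spread between its libraries was small beside the difference. *KCNJ16*, the nearest other channel gene, ends 33.065 kb upstream of *KCNJ2* and had at most 2 counts in any library. *KCNJ9*, one of the G-protein-gated (GIRK) subunits, had 29, 33 and 31 counts against 13, 11 and 22 (log2 −1.05, SE 0.31, adjusted p = 0.016, edgeR). It lost its call under 4 of 17 settings and in the test against a 1.5-fold threshold. Its fellow GIRK genes *KCNJ3* (10, 25 and 13 counts against 15, 37 and 39) and *KCNJ5* (20, 14 and 19 against 11, 10 and 17) were not called.

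Among the classical Kv genes, 3 of 7 tested were lower and 0 higher. *KCNC1* encodes Kv3.1, a fast delayed rectifier of rapidly firing neurons, and lies at chr11:17734774-17856804 (plus strand, GRCh38). It had 466, 486 and 502 counts in the control and 126, 138 and 151 with Ad CMV 3xFlag-Esrrg, or 15.8 ± 0.686 CPM against 4.41 ± 0.307. All 3 libraries with Ad CMV 3xFlag-Esrrg were far below the control, and this was the strongest fall of any tested channel gene (log2 −1.84, SE 0.12, adjusted p = 4.5e-06, edgeR). Its relative *KCNC4* (log2 −0.37, SE 0.20) was not called. *KCND1* (Kv4.1, an A-type channel that inactivates quickly) had 440, 406 and 508 counts against 222, 243 and 385 (log2 −0.71, SE 0.16, adjusted p = 0.0048, edgeR). Replicate 4 was the highest of its Ad CMV 3xFlag-Esrrg libraries, and the call was lost without Ad CMV 3xFlag-Esrrg replicate 2 (log2 −0.56) and without replicate 3. The call was also lost in the test against a 1.5-fold threshold.

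The silent subunits went both ways, with 1 of 5 tested genes higher and 1 lower. *KCNG1* (Kv6.1) had 77, 92 and 93 counts against 130, 170 and 196, or 2.84 ± 0.124 CPM against 5.22 ± 0.469 (log2 0.88, SE 0.16, adjusted p = 0.0012, edgeR). It was no longer called under 3 of 17 settings, library size as the only scaling and both corrections for GC content and length. Nor was it called in the test against a 1.5-fold threshold. *KCNS2* (Kv9.2) had 79, 76 and 80 counts against 44, 32 and 30 (log2 −1.16, SE 0.26, adjusted p = 0.0039, edgeR). With the share of reads in no gene as a covariate its log2 difference was −0.35 (SE 0.36) and it was not called. *KCNG3*, *KCNS1* and *KCNV2* had log2 differences of −0.99, 0.51 and 0.07 and were not called.

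Of the EAG genes 2 of 7 tested were lower and 0 higher. *KCNH1* encodes EAG1, a voltage-gated channel present in brain and in many tumour lines. It had 357, 370 and 401 counts in the control and 118, 157 and 142 with Ad CMV 3xFlag-Esrrg, a fall from 12.2 ± 0.369 to 4.42 ± 0.248 CPM (log2 −1.47, SE 0.12, adjusted p = 1.9e-05, edgeR). Other annotated genes share 46.8% of its exon bases, so its count is uncertain to that extent. *KCNH8* (ELK1), of the ELK branch, had 311, 331 and 327 counts against 128, 135 and 111 (log2 −1.40, SE 0.16, adjusted p = 9.4e-05, edgeR). Both genes were well separated between groups. *KCNH3*, *KCNH4*, *KCNH6* and *KCNH7* had log2 differences from −0.66 to 0.12 and were not called, although the groups did not overlap for *KCNH6*.

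Some of the KCNQ genes form the M-current, which damps repetitive firing. In this class *KCNQ3* had 10, 18 and 12 counts against 5, 8 and 10. Its log2 difference of −0.83 (SE 0.38) did not pass edgeR's test (adjusted p = 0.099). *KCNQ5*, at 66.8 ± 1.65 CPM against 64.0 ± 9.65, was not called either. Taken as 1 group after their values had been seen, the Kv, silent Kv, EAG and KCNQ classes had 1 of 23 tested genes higher and 7 lower, with a median of −0.37. Across the alternative settings 0 to 3 of them were called higher and 4 to 12 lower. The Kir and K2P classes together had 5 of 17 higher and 1 lower (3 to 8 and 0 to 3 over the settings). Over all genes tested 17.3% were called higher and 16.8% lower. With library size alone these shares were 8.98% and 30.9%, and with the share of reads in no gene as a covariate 7.24% and 5.40%. The ranges over settings thus include shifts seen in all genes, and the difference between these groups of classes was not tested.

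Of the calcium- or sodium-activated channels 1 of 6 tested was higher and 2 were lower. *KCNN4*, the intermediate-conductance (IK) channel, had 25, 32 and 20 counts against 52, 63 and 71, a rise from 0.842 ± 0.219 to 1.97 ± 0.108 CPM (log2 1.23, SE 0.25, adjusted p = 0.0022, edgeR). *KCNN3*, the small-conductance channel SK3 that contributes to the afterhyperpolarization, went the other way with 59, 69 and 60 counts against 21, 27 and 20 (log2 −1.50, SE 0.23, adjusted p = 5.5e-04, edgeR). For both genes the libraries of the 2 groups were fully separated. *KCNN1* (SK1) had 51, 81 and 87 counts against 80, 107 and 126, a log2 difference of 0.48 (SE 0.20) that was not called. *KCNT2*, a sodium-activated channel and among the most abundant channel genes here, had 1468, 1608 and 1532 counts against 1132, 926 and 855. Its level was 50.1 ± 3.32 CPM against 42.3, 27.5 and 25.1 in replicates 2, 3 and 4 (log2 −0.67, SE 0.17, adjusted p = 0.0090, edgeR). The order of those 3 libraries was that of their share of reads in no gene, 46.6%, 31.6% and 29.5%. This share also moved with the groups, so it cannot be told apart from the virus, and its part here was not tested. With that share as a covariate the log2 difference was −0.02 (SE 0.12) and the call was lost. The call was also lost without replicate 3 (−0.57) or replicate 4 (−0.51) of Ad CMV 3xFlag-Esrrg. Neither the GC and length correction (−0.45) nor the test against a 1.5-fold threshold kept it.

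Auxiliary subunits had 1 of 9 tested genes higher and 1 lower. *KCNAB1*, a cytoplasmic beta subunit of Shaker-type channels, had 439, 484 and 548 counts against 857, 991 and 1026, or 15.9 ± 0.547 CPM against 30.5 ± 1.36 (log2 0.94, SE 0.09, adjusted p = 5.6e-05, edgeR). Its relatives *KCNAB2* (304, 354 and 326 counts against 223, 279 and 366) and *KCNAB3* (181, 167 and 188 against 170, 211 and 244) were not called. As a percentage of the *KCNAB2* count, *KCNAB1* stood at 144, 137 and 168 in the control and 384, 355 and 280 with Ad CMV 3xFlag-Esrrg. The pore genes that this subunit is known to bind were nearly undetected, as 7 of 8 *KCNA* genes stayed at 3 counts or fewer.

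*KCNIP2* encodes KChIP2, a calcium-binding subunit of Kv4 channels, and had 229, 212 and 224 counts against 108, 116 and 126 (log2 −0.96, SE 0.15, adjusted p = 5.2e-04, edgeR). Its antisense gene *KCNIP2-AS1* covers 13.1% of its exon bases. *KCND1*, the main Kv4 pore gene counted here, was lower too, and the *KCNIP2* count as a percentage of the *KCND1* count was 52.0, 52.2 and 44.1 in the control and 48.6, 47.7 and 32.7 with Ad CMV 3xFlag-Esrrg. These ranges overlapped. Of the BK beta subunits, *KCNMB4* had 202, 193 and 219 counts against 169, 261 and 383 and was not called. The other 2 tested, *KCNMB2* and *KCNMB3*, were not called either, and 32.1% and 47.6% of their exon bases lie in other genes.

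**Figure D3:**
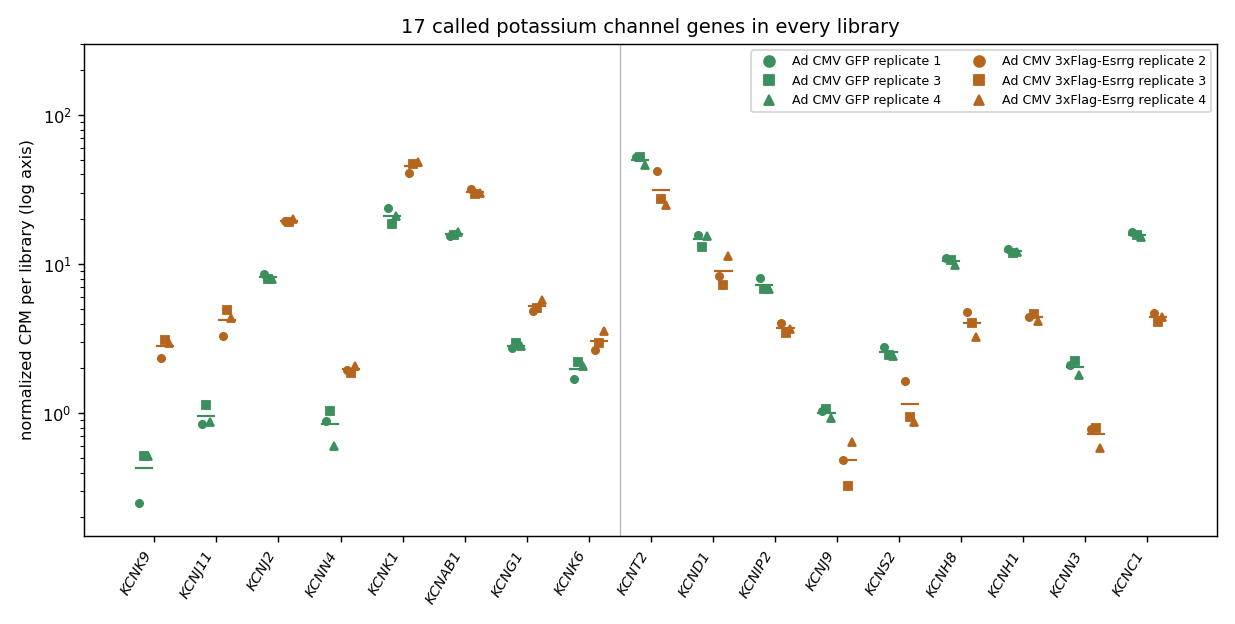
Normalized CPM (log axis) in each of the 6 libraries for the 8 genes called higher (left of the line) and 9 of those called lower, with a short bar at each group mean. For each gene the 3 Ad CMV GFP points and the 3 Ad CMV 3xFlag-Esrrg points do not overlap, and for *KCNT2* replicate 2 of Ad CMV 3xFlag-Esrrg, at 42.3 CPM, is nearest to the control.

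The other genes of potassium transport and the channels' partner proteins were taken from a list of 30, of which 22 were tested, 12 higher and 1 lower with a median log2 difference of 0.67. That is 54.5% of the tested list called higher and 4.55% lower, beside 17.3% and 16.8% of all genes tested and 25.9% and 12.4% of protein-coding ones. Because the list was chosen with earlier results of these data known, its shares cannot show that such genes were called more often. The count depended on the processing. With library size as the only scaling 6 were higher and 4 lower (8.98% and 30.9% of all genes), with the share of reads in no gene as a covariate 6 and 0 (7.24% and 5.40% of all genes), and in a test against a 1.5-fold threshold 7 and 0. *ATP1B3*, *HCN2*, *SLC12A4*, *SLC12A7*, *TMEM38A* and *TMEM38B*, named after their values had been seen, lost the call under both of the first 2 of these. *ATP1B1* encodes a beta subunit of the sodium-potassium pump, which builds the gradient the channels use. It had 5740, 6051 and 6625 counts against 17091, 26642 and 27418 (log2 1.90, SE 0.12, adjusted p = 3.9e-06, edgeR), with the groups far apart. *LINGO1*, a membrane protein reported to bind BK channels, had 23, 16 and 24 counts against 117, 140 and 185 (log2 2.76, SE 0.23, adjusted p = 2.1e-05, edgeR).

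Partners of the channels did not all follow their pore genes. *ABCC8* encodes SUR1, the sulfonylurea receptor that assembles with Kir6.2, and lies 3.167 kb from *KCNJ11* on the same strand. It had 124, 132 and 166 counts against 404, 520 and 490 (log2 1.71, SE 0.12, adjusted p = 7.9e-06, edgeR), so both parts of this KATP channel were higher. The paralogous pair *KCNJ8* and *ABCC9*, 21.789 kb apart, was not called, with log2 differences of −0.19 (SE 0.11) and 0.49 (SE 0.13). For *ABCC9* the groups did not overlap and edgeR's quasi-likelihood test gave an adjusted p of 0.011, but the difference was below 1.5-fold. For Kv4 channels, the partner *DPP6* had 3, 5 and 10 counts against 30, 33 and 34 (log2 2.38, SE 0.37, adjusted p = 5.1e-04, edgeR), while its relative *DPP10* had 38, 31 and 31 against 16, 23 and 16 (log2 −0.90, SE 0.28, adjusted p = 0.024, edgeR). The *DPP10* call held under 9 of 17 settings and was lost in the test against a 1.5-fold threshold. Thus *DPP6* rose where *KCND1* and *KCNIP2* fell.

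**Figure D4:**
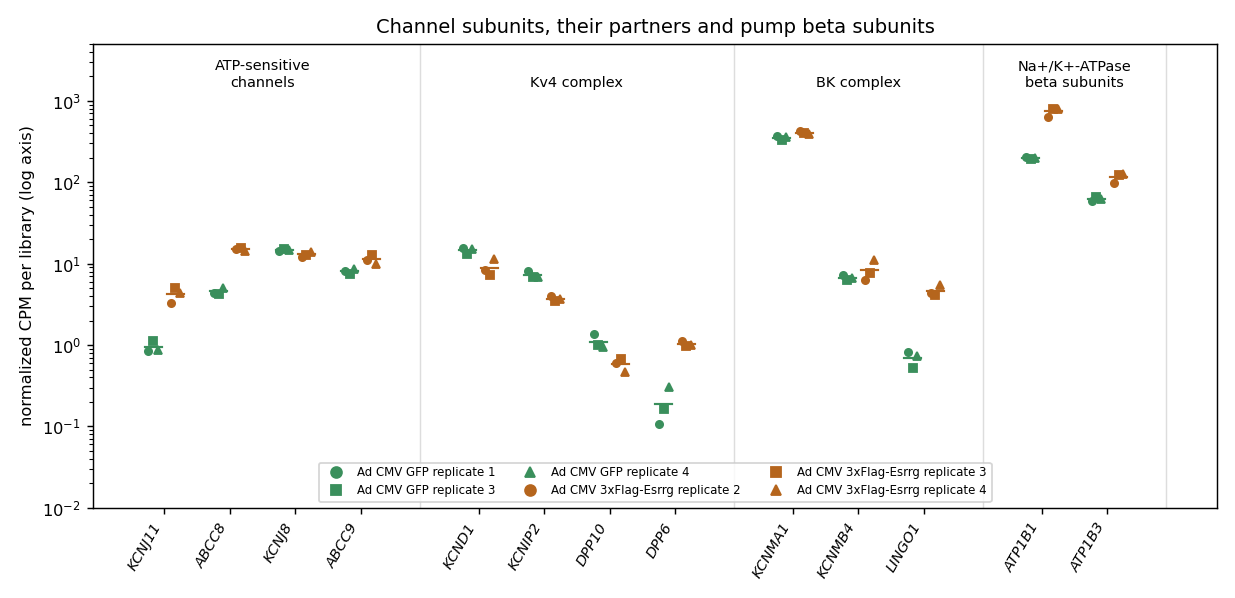
Normalized CPM (log axis) in each of the 6 libraries for pore genes, the partners they assemble with and 2 beta subunits of the sodium-potassium pump, with a short bar at each group mean. *KCNJ11* and *ABCC8* are both higher with Ad CMV 3xFlag-Esrrg, whereas *KCND1* and *KCNIP2* are lower and *DPP6* is higher.

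Promoter sequence was looked at because ERRγ is a DNA-binding receptor. RefSeq promoters (GRCh38.p14, from 250 bases before to 50 after the start, the first listed for each gene) matched 71 of the 95 genes, with 39 tested ones, 5 of the called higher and 7 of the called lower. The ERR response element TCAAGGTCA, on either strand, was in 0 of the 71 and in 0.359% of all 27305 promoters. Its shorter core AAGGTCA, which lies within the longer element, was in 2 (*KCND2* and *KCNJ16*, both untested) and in 3.97% of all promoters. No match says only that these letters are not in this window. The GC box GGGCGG, a common promoter element, was in 43 of the 71 genes and in 44.6% of all promoters. It was in 29 of the 39 tested genes, among them 4 of the 5 higher and 7 of the 7 lower. The windows of a strongly higher and a strongly lower gene are shown up to the start or the first annotated exon base, with GC boxes on either strand in capitals.
*KCNJ2*, chr17:70169282-70169531, plus strand: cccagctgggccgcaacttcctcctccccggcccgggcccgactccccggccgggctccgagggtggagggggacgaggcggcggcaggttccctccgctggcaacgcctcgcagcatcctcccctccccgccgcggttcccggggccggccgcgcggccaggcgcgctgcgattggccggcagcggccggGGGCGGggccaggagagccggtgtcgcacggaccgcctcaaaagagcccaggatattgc
*KCNC1*, chr11:17734531-17734773, plus strand: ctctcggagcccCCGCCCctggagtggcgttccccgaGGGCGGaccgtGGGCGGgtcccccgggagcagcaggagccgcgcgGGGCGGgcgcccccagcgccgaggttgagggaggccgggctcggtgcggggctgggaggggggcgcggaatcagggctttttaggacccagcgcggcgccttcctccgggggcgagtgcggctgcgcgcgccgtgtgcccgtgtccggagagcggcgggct
The *KCNJ2* stretch (250 bases, 77.6% GC, 32 CG pairs) has 1 GC box, and 123 of its bases lie in an exon of the antisense gene *KCNJ2-AS1*. The *KCNC1* stretch (243 bases, 79.0% GC, 34 CG pairs) has 4. One of these genes was higher and the other lower, and both windows are rich in GC. The *KCNJ2* window lies downstream of the GENCODE start of that gene (chr17:70168673), within its span but outside its exons. The distance from *KCNJ16* was taken from that GENCODE start.

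Of the 19 called genes, 13 kept their call under every alternative setting in which they were tested, up to 17 settings for a gene. Among these were *KCNK9*, *KCNJ11*, *KCNJ2*, *KCNN4*, *KCNK1* and *KCNAB1*, all higher, and *KCNC1*, *KCNN3*, *KCNH1*, *KCNH8* and *KCNIP2*, all lower. The other 6 lost it in at least 1 setting. These 17 settings leave out the test against a 1.5-fold threshold, in which 12 of the 19 genes kept the call. The count of higher genes depended on Ad CMV 3xFlag-Esrrg replicate 2, since without it 14 were called higher and 13 lower, against 22.9% and 20.3% of all genes. The 6 added higher genes were *KCNH2* (log2 0.59), *KCNJ3* (1.21), *KCNK3* (0.86), *KCNMB4* (0.62), *KCNN1* (0.65) and *KCNS1* (0.70).

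**Figure D5:**
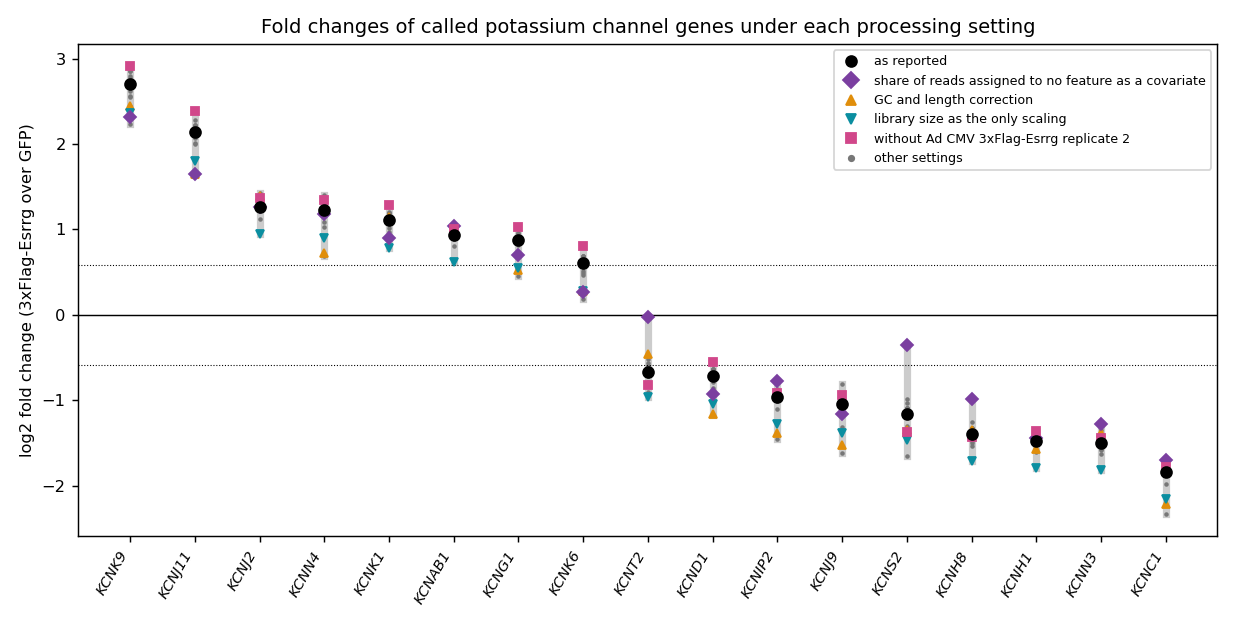
Log2 fold change (Ad CMV 3xFlag-Esrrg over Ad CMV GFP) of 17 called genes as reported (black) and under the alternative settings (other symbols, 4 of them named in the key), with a grey bar for the range and dotted lines at 1.5-fold. *KCNK9*, *KCNJ11* and *KCNC1* lie beyond the 1.5-fold lines under every setting, while *KCNT2* reaches −0.02 with the share of reads in no feature as a covariate.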

How the data were processed

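RNA from 6 SH-SY5Y libraries was analysed. The deposited values are raw counts per human gene, made by the authors with HTSeq-count (the submitters' processing notes name Trim Galore 0.6.7, STAR 2.7.9a and HTSeq 0.11.3). The annotation release and strand setting are not given in the sources used here. The 5 summary entries, such as reads in no feature, were kept out of library sizes and tests. Identifiers were matched to GENCODE release 44 on GRCh38, where 60419 of 67060 (90.1%) were found.

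Genes that passed filterByExpr were scaled by TMM and compared by the quasi-likelihood test of edgeR 4.0.16 (R 4.3.3), fitted over all genes, with Benjamini-Hochberg adjustment. Calls needed an adjusted p below 0.05 and a 1.5-fold change, the cutoff the study gives for its mouse data. Normalized CPM use TMM-scaled library sizes. Standard errors were derived from the F statistic, as the size of the log2 change divided by its root. Precision was limited by 24969759 to 40859666 counts per library, and limits from counts cover counting error only. Alternatives were RLE scaling, DESeq2 1.42.0, library size alone, other filters and fold cutoffs, a fit of only the protein-coding genes, removal of 1 library at a time, the replicate number as a block, GC and length curves (mgcv 1.9.3), and the share of reads in no feature as a covariate. Fits were tested on simulated data.

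The genes named were those called, the 8 of highest level per kb, KCNS3, those at 0 counts, and up to 4 called partner genes in each direction. Others were named as relatives, partners or neighbours of these after their values had been seen. Some genes that this rule selects are not reported here and are not plotted. The members and lists were chosen with earlier results of these data known. Promoters came from RefSeq. Copies were looked up as words of 31 bases, among channel genes and in 261 alternate contigs. Python 3.11.15 was used for tables and plots.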

Additional observations from a re-analysis of the deposited data

How the results depend on the processing

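The main counts were 8 genes higher and 11 lower. The count of lower genes was 17 with library size alone, 6 in the test against a 1.5-fold threshold, and 19 with the replicate block together with GC and length curves. With a 2-fold cutoff 5 were higher and 6 lower. Leaving out 1 library gave 7 to 14 higher, the 14 without Ad CMV 3xFlag-Esrrg replicate 2, and 9 to 13 lower. With RLE size factors and with DESeq2 the counts were 8 and 11, without a filter on low counts 9 and 14, with the GC and length correction 6 and 13, and with the share of reads in no feature as a covariate 7 and 8.

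The replicate block gave 11 higher and 16 lower. Only the numbers 3 and 4 occur in both groups, and the deviations of same-numbered libraries correlated at 0.075 and -0.0001, so the numbers do not establish pairs.

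Direction turned for 4 uncalled genes. The log2 difference of KCNH2 was -0.081 with GC and length curves and -0.17 with the block added, and that of KCNMA1 was -0.11 with library size alone. For KCNK2 it ran from -0.146 to 0.0164 with 1 library left out, positive only without Ad CMV 3xFlag-Esrrg replicate 2. KCNQ5 was at 0.0122 with RLE size factors, 0.0121 with DESeq2, 0.0094 with GC and length curves and 0.28 with the covariate, and from -0.0745 to 0.0440 with 1 library left out, positive only without Ad CMV 3xFlag-Esrrg replicate 4. The causes were not tested. Of the values for the genes so followed, 389 kept direction and call, 25 lost the call, 1 gained it and 9 turned. These counts leave out the other uncalled channel genes, some of which moved more. Among all channel genes 9 gained a call without Ad CMV 3xFlag-Esrrg replicate 2 and 8 with the replicate block. KCNV2 (log2 0.07 in the main fit) was called lower with the block and GC and length curves together. The members' median log2 difference ran from -0.48 with library size alone to -0.02 with the covariate. Depth limits the genes with few counts, where 40 of 95 were not tested.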

Other observations

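The table also holds 25 non-coding genes with KCN in their symbol, most of them antisense or intronic to a channel gene, and 13 of these were tested (median log2 difference -0.35). *KCNQ1OT1*, the antisense transcript of the imprinted *KCNQ1* domain, had 6210, 6115 and 6088 counts with Ad CMV GFP and 3282, 2893 and 3022 with Ad CMV 3xFlag-Esrrg (log2 -1.02, SE 0.14, adjusted p = 3.0e-04, edgeR's quasi-likelihood test). *KCNQ1* itself had 24, 21 and 19 counts against 14, 24 and 30 and was not called. *KCNH1-IT1*, within *KCNH1*, had 28, 37 and 36 counts against 8, 6 and 10 (log2 -2.08, SE 0.32, adjusted p = 4.6e-04, edgeR), in the same direction as *KCNH1*. *KCNJ2-AS1*, which overlaps the start of *KCNJ2* on the other strand, had 27, 20 and 20 counts against 52, 48 and 69 (log2 1.29, SE 0.27, adjusted p = 0.0028, edgeR), in the same direction as *KCNJ2*. The counting's strand setting is not known, so reads of overlapping genes cannot be told apart. These 3 were the non-coding genes called, and they were named after their values had been seen.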
